A study of Mus musculus with 2 samples.

Results

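Mitotic gene-high cells are the mouse embryonic stem cells (mESCs) that held the most RNA of *Ube2c*, *Cdc20*, *Ccnb1*, *Plk1*, *Aurka* and *Cenpf*, 6 genes of the passage through mitosis. They were chosen by a score, the summed unique molecular identifiers (UMIs) of these 6 genes per 10000 UMIs of the cell, and are the top 20% of the score in each library. There were 1008 such cells among the 5036 cells that passed the filters, 439 of 2193 in the WT library and 569 of 2843 in the library labelled S1/5 dKO. Each set was compared with the bottom 20% of the same library, again 439 and 569 cells. A class taken by a limit of a score is a range of cells and not a type.

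The study asks what the BMP-activated transcription factors SMAD1 and SMAD5 do in mESCs. The WT cells are the parental E14 line, and the S1/5 dKO cells are an E14 derivative in which both *Smad1* and *Smad5* were disrupted by CRISPR-Cas9. Both were grown without feeders on gelatin in serum medium with 15% FBS and 1000 U/ml LIF, the cytokine that keeps mESCs self-renewing. Each condition has 1 library, made with the 10x 3′ v3 kit, which counts each captured mRNA molecule near its 3′ end. The WT matrix holds 100446187 UMIs and the other 113937221. The cells that passed the filters had a median of 38987 UMIs in WT (range 10552 to 198658) and of 34856 in the other library (range 10078 to 151083). The members add up to 22977104 UMIs in WT and 25551575 in the S1/5 dKO-labelled library, and the bottom cells to 15833795 and 19170349. No cell barcode was found in both libraries (0 shared). With 1 library per condition no test was run. The intervals given are exact 95% Poisson or binomial intervals, and they cover counting error alone, not the spread between cells or between cultures.

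A cell that prepares to divide builds up, through G2, the kinases, spindle motors and kinetochore proteins that it will use in mitosis, and the genes for them share a transcription program of the DREAM and MuvB complexes, B-MYB and FOXM1. Cyclin B with CDK1 starts mitosis, and the anaphase-promoting complex (APC/C), a ubiquitin ligase, ends it by marking cyclin B and securin for destruction. The replication-dependent histone genes are the counterpart, since their mRNAs build up during DNA synthesis and are destroyed when S phase ends. Mouse ESCs have a short G1 phase and spend much of each cycle in S phase.

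The label S1/5 dKO was checked in the members before any result between the libraries. *Smad1* (ENSMUSG00000031681, chr8:79338395-79399518 of GRCm38) was at 14.6 CPM (UMIs per 1000000 UMIs of the class, interval 13.1 to 16.3) in WT members and at 10.3 (9.05 to 11.6) in the others, a log2 ratio of −0.51 (−0.75 to −0.27). *Smad5* (ENSMUSG00000021540, chr13:56703010-56742377) was at 6.83 CPM (5.81 to 7.99) in WT members and at 8.77 (7.66 to 9.99) in the others, a log2 ratio of 0.36 (0.06 to 0.66). *Smad5* mRNA was thus higher in the library labelled as its knockout, and which of the double knockout lines was used is not stated. A frameshift can leave an mRNA in place, so mRNA alone does not show whether the protein was lost. The library is therefore called here the S1/5 dKO-labelled library.

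The limit of the score fell inside a continuous range. In WT the lowest member had a score of 23.544 and the highest cell outside one of 23.536. In the S1/5 dKO-labelled library these scores were 24.065 and 24.060. Within 1 unit of the limit lay 114 WT cells, 53 of them members, and 158 cells of the other library, 74 of them members, so that membership near the limit rests on a few UMIs. Members had a median score of 28.2 in WT and of 28.3 in the other library, and their highest scores were 54.0 and 54.7. The bottom cells ended at 9.44 in WT and at 10.8 in the other library, with medians of 7.76 and 8.77.

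**Figure D1:**
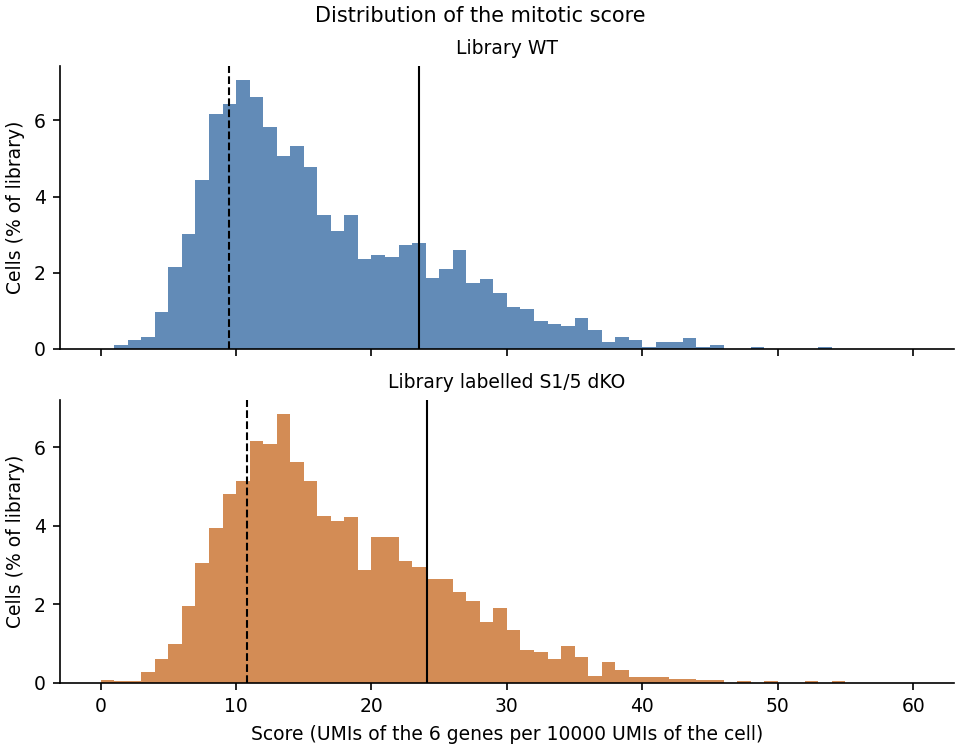
Share of the cells of each library (y axis, %) in bins 1 unit wide of the mitotic score (x axis, UMIs of the 6 genes per 10000 UMIs), with the lower limit of the members as a solid line and the upper limit of the bottom cells as a dashed line. Both distributions have 1 main peak below 15 and a long shoulder that runs through the members' limits of 23.5 and 24.1.

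Since each library was divided by its own limits, the share of members is fixed by the rule. With the WT limits, each passed by 439 of the 2193 WT cells, applied to both libraries, 21.8% (620 of 2843, interval 20.3 to 23.4) of the cells labelled S1/5 dKO lay at or above the top limit and 13.1% (372, interval 11.9 to 14.4) at or below the bottom limit. After each cell was thinned to 10000 UMIs, the shares at or above the top limit were 20.6% (18.9 to 22.4) and 22.5% (21.0 to 24.1), and those at or below the bottom limit 23.7% (21.9 to 25.5) and 16.6% (15.3 to 18.1). No cell had to be left out for this, as every cell had at least 10000 UMIs. At the low end of the score the shares of the libraries lay further apart than at the high end, with and without thinning. These intervals cover counting error alone, and a difference between the libraries cannot be told apart from one between cultures.

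*Ube2c* (ENSMUSG00000001403, chr2:164769898-164778822) encodes the ubiquitin-conjugating enzyme that works with the APC/C, and it gave 43.7% of all score UMIs in WT and 45.4% in the other library. Its level was 1425 CPM in WT members and 228 CPM in WT bottom cells, and 1459 and 290 CPM in the S1/5 dKO-labelled library. *Cdc20* (ENSMUSG00000006398, chr4:118432901-118437352), the activator of the APC/C in mitosis, stood at 478 CPM in WT members against 239 CPM in bottom cells, and at 450 against 242 CPM in the other library. These values chose the cells and are a description. *Cdc20* separated members from bottom cells least of the 6 genes, with log2 ratios of 1.00 in WT and 0.89 in the other library.

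*Ccnb1* (ENSMUSG00000041431, chr13:100778650-100786570) encodes cyclin B1, and its level was 332 CPM in WT members against 128 CPM in bottom cells, and 345 against 139 CPM in the S1/5 dKO-labelled library. *Plk1* (ENSMUSG00000030867, chr7:122159439-122169873), a kinase of mitotic entry and spindle assembly, was at 158 against 32.1 CPM in WT and at 155 against 37.8 CPM in the other library. *Aurka* (ENSMUSG00000027496, chr2:172356190-172370535), the kinase of the spindle poles, was at 163 against 41.4 CPM in WT and at 171 against 49.3 CPM in the other. *Cenpf* (ENSMUSG00000026605, chr1:189640606-189688086), a protein of the outer kinetochore, was at 348 against 81.0 CPM in WT and at 358 against 97.3 CPM in the other library. Read per cell rather than summed, the ranges of *Ube2c* did not meet at their outer parts: WT members had from 10.0 to 20.6 UMIs per 10000 (5th to 95th percentile) and WT bottom cells from 0.64 to 4.22. For *Cdc20* the same ranges met, from 2.57 to 7.94 in members and from 0.68 to 4.79 in bottom cells.

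Each score gene was also read in cells chosen by the other 5 genes, so that its own counts did not enter the choice. *Ube2c* then stood at 1325 CPM in the top 20% and at 319 CPM in the bottom 20% of WT, a log2 ratio of 2.05 (2.01 to 2.10), and at 1337 and 401 CPM in the other library, a log2 ratio of 1.74 (1.70 to 1.77). *Cdc20* stood at 454 and 315 CPM in WT, a log2 ratio of 0.53 (0.48 to 0.58), and at 423 and 307 CPM in the other, a log2 ratio of 0.46 (0.41 to 0.51). The remaining 4 genes had log2 ratios from 1.16 (*Ccnb1*) to 2.07 (*Plk1*) in WT and from 1.06 to 1.78, for the same genes, in the other library. All 6 were higher in cells picked by the rest, which is a description, since the 6 genes were chosen together as genes of mitosis. Without *Ube2c*, 360 of the 439 WT members (82.0%) and 449 of the 569 others (78.9%) were still among the top 20%, and without *Cdc20* 92.5% and 91.7%.

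Members also held more UMIs. Their median was 50530 UMIs per cell in WT against 34262 in bottom cells, a ratio of 1.47, and 43142 against 31192 in the S1/5 dKO-labelled library, a ratio of 1.38. The median number of detected genes was 5846 against 5017 in WT and 5526 against 4779 in the other library. When the members were picked after each cell had been thinned to 10000 UMIs, the ratios of the original UMIs were 1.40 and 1.35. Cells of over 2 times the library's median depth, a range in which some droplets with 2 cells can fall, made up 10.0% of WT members (44) and 7.56% of the others (43), against 1.82% (8) and 1.93% (11) of the bottom cells. No caller of doublets was applied. Without those cells the ratios were 1.45 and 1.37, and what part depth and doublets have in the members was not tested.

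The share of UMIs from mitochondrial genes was lower by a small step in members, with medians of 1.66% against 1.78% in WT and 1.82% against 1.98% in the other library. Ribosomal protein genes took a median of 27.6% of the UMIs of WT members and 27.7% of WT bottom cells, and 27.0% in both classes of the other library. Both shares thus lay close together in members and bottom cells, and RNA quality was not examined otherwise.

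Free RNA, read in barcodes of 10 to 100 UMIs, carried the score genes as well. The summed score of these barcodes was 13.99 per 10000 UMIs in WT (13.4 to 14.6) and 14.87 (14.3 to 15.4) in the other library, above the summed score of the bottom cells, 7.50 and 8.56, and below that of the members, 29.0 and 29.4. *Ube2c* was at 591 CPM in the free RNA of WT and *Hist1h1b*, a histone H1 gene, at 450 CPM. Both lie between the levels of members and bottom cells, so free RNA moves the 2 classes towards each other. How much of the UMIs of a cell it makes up was not tested.

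Outside the score, 8055 genes had at least 200 UMIs over members and bottom cells in each library. At least 1.5-fold higher in members were 212 genes in WT (2.63%), 224 in the S1/5 dKO-labelled library (2.78%) and 147 in both (1.82%). At least 1.5-fold lower were 74 genes in WT (0.919%), 56 in the other library (0.695%) and 31 in both (0.385%). The rule divided the cells by this same contrast, so the counts describe the members and nothing is read from their number. The genes higher in both were 69.3% of those higher in WT and 65.6% of those higher in the other library, and the genes lower in both were 41.9% and 55.4%. In opposite directions were 2 genes, *Tagln*, for an actin-binding protein, and *Gm5039*, both lower in WT members and higher in the others, which are named because of their values. The median log2 ratio over all genes tested was −0.0017 in WT and 0.012 in the other library, and 90% of the genes in WT lay between −0.34 and 0.44.

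**Figure D2:**
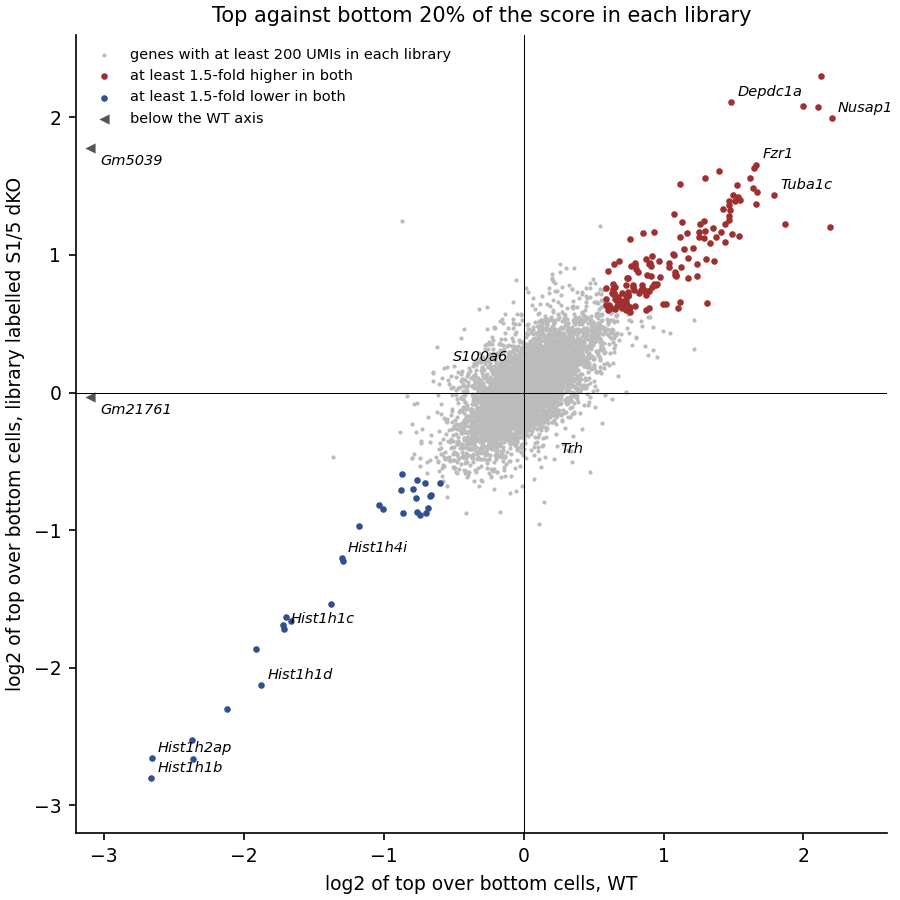
Log2 ratio of members over bottom cells for each of the 8055 genes tested, in WT (x axis) and in the S1/5 dKO-labelled library (y axis), with the 147 genes at least 1.5-fold higher in both in red and the 31 lower in both in blue. Most genes lie near 0 on both axes, histone genes form the lower end of those lower in both, and triangles at the left edge mark *Gm5039* and *Gm21761*, whose WT ratios of −6.79 and −7.83 lie beyond the axis.

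The gene with the highest ratio outside the score, among genes with at least 500 UMIs in each library and ranked by the library where the ratio is nearer to 1, was *Fam83d* (ENSMUSG00000027654, chr2:158768093-158786637), which brings casein kinase 1 to the mitotic spindle. Its level was 35.6 CPM in WT members and 8.27 CPM in bottom cells, and 32.5 and 7.72 CPM in the other library, log2 ratios of 2.10 (1.84 to 2.38) and 2.07 (1.82 to 2.34). Second was *Nusap1* (ENSMUSG00000027306, chr2:119618298-119651244), which bundles spindle microtubules around the chromosomes. It was at 140 CPM in WT members and at 30.4 CPM in bottom cells, and at 152 and 38.1 CPM in the other library, log2 ratios of 2.20 (2.06 to 2.34) and 2.00 (1.88 to 2.11). Both were thus about as far apart between the classes as *Plk1* and *Aurka*, which the rule used. The third was *Fzr1* (ENSMUSG00000020235, chr10:81366222-81378516), the activator of the APC/C that takes over from CDC20 at the end of mitosis. Its levels were 109 and 34.4 CPM in WT and 110 and 35.1 CPM in the other library, a log2 ratio of 1.66 in each.

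The promoters of 5 genes higher in members are shown as examples of letters that the rule did not use, and they were chosen after their letters were seen. The motifs were fixed as the letters TTTGAA and TTCGAA, the cell cycle genes homology region (CHR) that the MuvB complex binds, CCAAT, the letters bound by NF-Y, and TTCCCGC and TTGGCGC, letters of E2F sites, each on both strands. In the sequences, from RefSeq on the build GRCm38.p6 and written 5′ to 3′ on the strand of the gene, capitals mark these letters. *Ube2c* is read from chr2:164769799-164769927 (plus strand), *Cdc20* from chr4:118437344-118437473 (minus strand), *Ccnb1* from chr13:100786541-100786616 (minus strand), *Fam83d* from chr2:158767969-158768098 (plus strand) and *Kpna2* from chr11:106999526-106999655 (minus strand).

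Ube2c: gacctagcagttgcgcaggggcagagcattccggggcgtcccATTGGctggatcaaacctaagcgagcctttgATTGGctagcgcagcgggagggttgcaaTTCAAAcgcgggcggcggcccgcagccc
Cdc20: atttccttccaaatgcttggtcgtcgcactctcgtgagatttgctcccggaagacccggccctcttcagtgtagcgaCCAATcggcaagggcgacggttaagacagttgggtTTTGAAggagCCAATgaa
Ccnb1: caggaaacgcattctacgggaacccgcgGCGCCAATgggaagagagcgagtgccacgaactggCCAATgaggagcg
Fam83d: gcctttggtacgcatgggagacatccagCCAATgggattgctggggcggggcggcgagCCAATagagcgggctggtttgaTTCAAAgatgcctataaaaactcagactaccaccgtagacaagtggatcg
Kpna2: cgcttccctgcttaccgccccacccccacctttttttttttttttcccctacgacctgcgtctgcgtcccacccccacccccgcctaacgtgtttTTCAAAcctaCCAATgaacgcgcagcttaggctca

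All of these promoters but that of *Ccnb1* pair CCAAT with a CHR close to the start of the gene. Positions are counted from the start in the RefSeq table, which can lie inside the gene as its coordinates above give it, and up to 30 bases of a printed sequence overlap an annotated exon. In *Cdc20* the letters TTTGAA begin 18 bases before that start. In *Ube2c* their reverse, TTCAAA, begins 29 bases before it, within the coordinates given for the gene. In *Ccnb1* the E2F letters TTGGCGC, on the opposite strand, overlap the first CCAAT, and no CHR letters were found in its window. Over the 250 bases before the start, CHR letters were found in 2 of the 6 score genes and CCAAT in all 6. *Plk1*, *Aurka* and *Cenpf*, not shown, thus hold CCAAT and none of the CHR letters searched in those bases. Letters other than those fixed above, and the bases after the start, were not searched. Of the genes ranked next to *Fam83d*, *Nusap1* holds none of the letters searched and *Fzr1* CCAAT alone. Of the 15 highest genes 13 were matched, 6 with a CHR and 11 with CCAAT.

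Of the 147 genes higher in both libraries, 119 (81.0%) had a promoter in the RefSeq table. A CHR was found in 28.6% of these, CCAAT in 62.2%, both in 24.4% (29 promoters) and E2F letters in 11.8%. Among all 27025 promoters of the table the shares were 17.4%, 34.5%, 6.21% and 5.71%. Among the 6514 promoters matched to the 8055 genes tested (80.9%) they were 12.5%, 38.1%, 5.22% and 11.8%. Of the 31 genes lower in both libraries 21 (67.7%) had a promoter in the table, with a CHR in 28.6%, CCAAT in 71.4% and both in 28.6%. The 6 promoters with both were all of histone genes (6 of 13), and the other lower genes had 0 of 8. No test was run on these shares. A match of letters is a description and does not show that a protein binds there.

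The next genes by rank included *Ckap2l*, a spindle protein, at 48.4 against 16.8 CPM in WT and at 49.6 against 17.5 CPM in the other library. *Kpna2* (ENSMUSG00000018362), the importin that carries proteins into the nucleus and releases spindle factors in mitosis, was at 92.0 against 29.6 CPM in WT and at 90.4 against 32.3 CPM in the other, log2 ratios of 1.64 and 1.49. *Tuba1c*, an alpha-tubulin, was at 118 against 34.0 CPM in WT and at 111 against 41.1 CPM in the other, log2 ratios of 1.79 and 1.43. Its sequence is close to that of *Tuba1b*, and how reads that match both genes were counted was not examined. *Jpt1*, whose product binds microtubules, was at 362 against 131 CPM in WT and at 378 against 147 CPM in the other, log2 ratios of 1.47 and 1.36. Of the remaining 8 of the 15 highest genes, *Miip*, *Depdc1a*, *Prc1*, *Aspm*, *Cenpl*, *Pimreg*, *Kif18a* and *Aurkb*, the WT log2 ratios ran from 1.42 (*Aurkb*) to 1.67 (*Prc1*), and those of the other library from 1.33 (*Aurkb*) to 2.11 (*Depdc1a*).

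Of the 147 higher genes, 44 (29.9%) belong to a list of genes fixed by name, and so do 17 of the 31 lower ones (54.8%) and 345 of the 8055 genes tested (4.28%). The lists were drawn up mostly for the cell cycle, with earlier results known, so nothing is read from these shares. The lists are given by the role of their genes, as counts at least 1.5-fold higher or lower in both libraries and as the median log2 ratio. Over all genes tested that median was −0.0017 in WT and 0.012 in the S1/5 dKO-labelled library. Of all genes tested 1.82% were higher and 0.385% lower in both, so a count of 0 in a short list is near these shares.

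Cyclins, CDK1 and its regulators came first in the order of events. Of 14 genes 4 were higher and 0 lower, with medians of 0.48 in WT and 0.36 in the other library. *Cdk1* (ENSMUSG00000019942, chr10:69335146-69352938), the kinase that drives entry into mitosis, was at 486 against 176 CPM in WT and at 478 against 201 CPM in the other, log2 ratios of 1.47 (1.41 to 1.53) and 1.25 (1.20 to 1.30). *Cks2*, a small subunit of CDK complexes, was at 756 against 341 CPM in WT and at 763 against 370 CPM in the other library. The remaining higher genes were *Cdc25b*, a phosphatase that activates CDK1, and *Ccnf*, a cyclin that serves as a ubiquitin ligase subunit. *Ccnb2*, for cyclin B2, stayed below the 1.5-fold limit, at 195 against 159 CPM in WT and 188 against 155 CPM in the other, although *Ccnb1* is among the score genes.

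Among the mitotic kinases and their partners 4 of 14 genes were higher and 0 lower, with medians of 0.45 and 0.38. *Aurkb*, the kinase of the chromosomal passenger complex, was at 110 against 41.1 CPM in WT and at 109 against 43.2 CPM in the other library. *Incenp*, which anchors that kinase, was at 132 against 53.6 CPM and at 128 against 56.6 CPM. *Birc5*, for survivin of the same complex, was at 272 against 199 CPM in WT and at 276 against 220 CPM in the other, short of the limit. *Tpx2*, the activator of Aurora A, and *Ttk*, the checkpoint kinase MPS1, were the other higher genes. *Plk4*, which starts the copying of centrioles, had log2 ratios of −0.22 and −0.19.

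The kinetochore and centromere list had 8 of 22 genes higher and 0 lower, with medians of 0.49 and 0.35. *Cenpa*, the histone H3 variant that marks centromeres, was at 337 against 124 CPM in WT and at 353 against 165 CPM in the other library. *Cenpe*, a kinetochore motor, had log2 ratios of 1.26 and 1.22, and *Bub3*, of the spindle checkpoint, of 1.04 and 0.92. Other higher genes were *Ndc80*, *Spc25* and *Knl1*, of the network that holds microtubules, and *Ska1*, which joins it. *Cenpk*, *Cenpm* and *Cenpw*, of the inner kinetochore, were below 0 in both libraries, at −0.03 to −0.24. *Cenpi*, of the inner kinetochore as well, was at 0.43 in WT and 0.47 in the other library. In all, 18 of the 22 genes were above 0 and 4 below in each library.

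Of the spindle motors and microtubule proteins 11 of 20 genes were higher and 0 lower, with medians of 0.80 in WT and 0.68 in the other library. Besides *Nusap1*, *Ckap2l* and *Tuba1c*, *Kif18a*, a motor that limits the length of microtubules, had log2 ratios of 1.66 (1.47 to 1.87) and 1.37 (1.20 to 1.54). *Hmmr*, a spindle pole protein, was at 205 against 86.0 CPM in WT and at 207 against 94.3 CPM in the other. Of the beta-tubulin genes, *Tubb4b* had log2 ratios of 0.52 and 0.39 and *Tubb5* of 0.26 and 0.17. Only 1 gene of the 20, *Kif15*, was below 0, at −0.13 in WT and −0.06 in the other library.

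Of the 12 cytokinesis genes 7 were higher and 0 lower, and all 12 were above 0 in both libraries, with medians of 0.69 and 0.64. *Prc1*, which bundles the microtubules of the midzone, was at 167 against 52.4 CPM in WT and at 170 against 61.8 CPM in the other library. *Kif23*, a motor of the midzone, had log2 ratios of 1.29 and 1.13. *Cep55*, which acts at abscission, the last step of division, was at 39.3 against 37.2 CPM in WT and at 36.6 against 34.6 CPM in the other.

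Condensin, cohesin regulators and chromatin proteins of mitosis had 6 of 18 genes higher and 0 lower, with medians of 0.50 and 0.41. *Top2a* (ENSMUSG00000020914, chr11:98992943-99024189), the topoisomerase that untangles sister chromatids, was at 398 against 167 CPM in WT and at 430 against 191 CPM in the other library. *Smc4*, a condensin subunit, was at 233 against 110 CPM and at 229 against 115 CPM, and *Mki67*, which coats mitotic chromosomes, at 85.2 against 40.3 CPM and at 84.7 against 46.9 CPM. *Sgo1* and *Sgo2a*, which protect cohesin at the centromere, and the histone variant gene *H2afx* completed the higher genes. *Ncapg2* and *Ncapd3*, of condensin II, were below 0 in both libraries, *Ncapg2* at −0.58 and −0.34. *Ncaph2*, of condensin II as well, was above 0 in both libraries. In all, 14 of the 18 genes were above 0 in WT and 15 in the other library.

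The promoters of *Cdk1* (chr10:69352913-69353042, minus strand) and *Top2a* (chr11:99024190-99024319, minus strand) are shown with the same marks as above, because each holds CHR and CCAAT letters more than once.

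Cdk1: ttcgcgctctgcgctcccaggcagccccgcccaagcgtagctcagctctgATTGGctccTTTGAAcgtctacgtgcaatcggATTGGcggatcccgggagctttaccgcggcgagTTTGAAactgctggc
Top2a: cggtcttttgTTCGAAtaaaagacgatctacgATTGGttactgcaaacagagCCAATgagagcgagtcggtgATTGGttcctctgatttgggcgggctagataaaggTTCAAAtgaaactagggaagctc

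In *Cdk1* the CHR letters nearest to the RefSeq start begin 15 bases before it, inside the gene as its coordinates above give it, and in *Top2a* 23 bases before it.

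Of 17 genes of the APC/C and its regulators 1 was higher, *Fzr1*, and 0 were lower, with medians of 0.10 in WT and 0.07 in the other library. *Ube2s*, the second ubiquitin-conjugating enzyme of the complex, was at 1395 against 1005 CPM in WT, and *Cdc27*, a core subunit, at 30.8 against 22.6 CPM. *Fbxo5*, for the inhibitor EMI1, had log2 ratios of 0.28 and 0.30. The subunits of the complex had log2 ratios between −0.16 (*Anapc11*) and 0.45 (*Cdc27*) in WT.

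The transcription factors of the program were not higher as a group. Of 20 genes tested among the 22 of MuvB, B-MYB, FOXM1 and E2F, 1 was higher and 1 lower, with medians of −0.03 and −0.11. *E2f2* was the higher one, at 11.1 against 4.48 CPM in WT and 9.59 against 6.10 CPM in the other library, and *E2f6*, a repressing E2F, the lower one, at 4.79 against 8.78 CPM and 4.34 against 7.09 CPM. *Foxm1* was at 9.23 against 7.64 CPM in WT and at 9.51 against 7.09 CPM in the other library. *Mybl2*, for B-MYB, had log2 ratios of −0.08 and −0.16, and *Lin37*, a MuvB subunit, of 0.53 and 0.54.

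Of the 22 genes of origin licensing and the G1/S step 0 were higher and 1 was lower, with medians of −0.20 and −0.18. The lower gene was *Ccne2*, for cyclin E2, at 3.79 against 9.28 CPM in WT and at 4.03 against 9.44 CPM in the other library. *Mcm4*, of the replicative helicase, had log2 ratios of −0.42 and −0.47, and *Slbp*, whose product binds the end of histone mRNAs, of −0.46 and −0.47. *Cdt1* and *Dbf4*, which act in licensing and in the firing of origins, were each at 0.52 in WT and 0.48 in the other library. In all, 4 of the 22 genes were above 0 in WT and 3 in the other library.

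Of the 22 DNA synthesis genes 0 were higher and 1 was lower, and none was above 0 in either library, with medians of −0.15 and −0.21. The lower gene was *Chaf1b*, of the factor that assembles chromatin behind the replication fork, at 37.3 against 60.4 CPM in WT and at 35.9 against 65.8 CPM in the other library. *Pcna*, the sliding clamp of the polymerases, was at 44.7 against 57.5 CPM and at 40.8 against 56.9 CPM. The steps were small beside those of the mitotic lists.

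**Figure D3:**
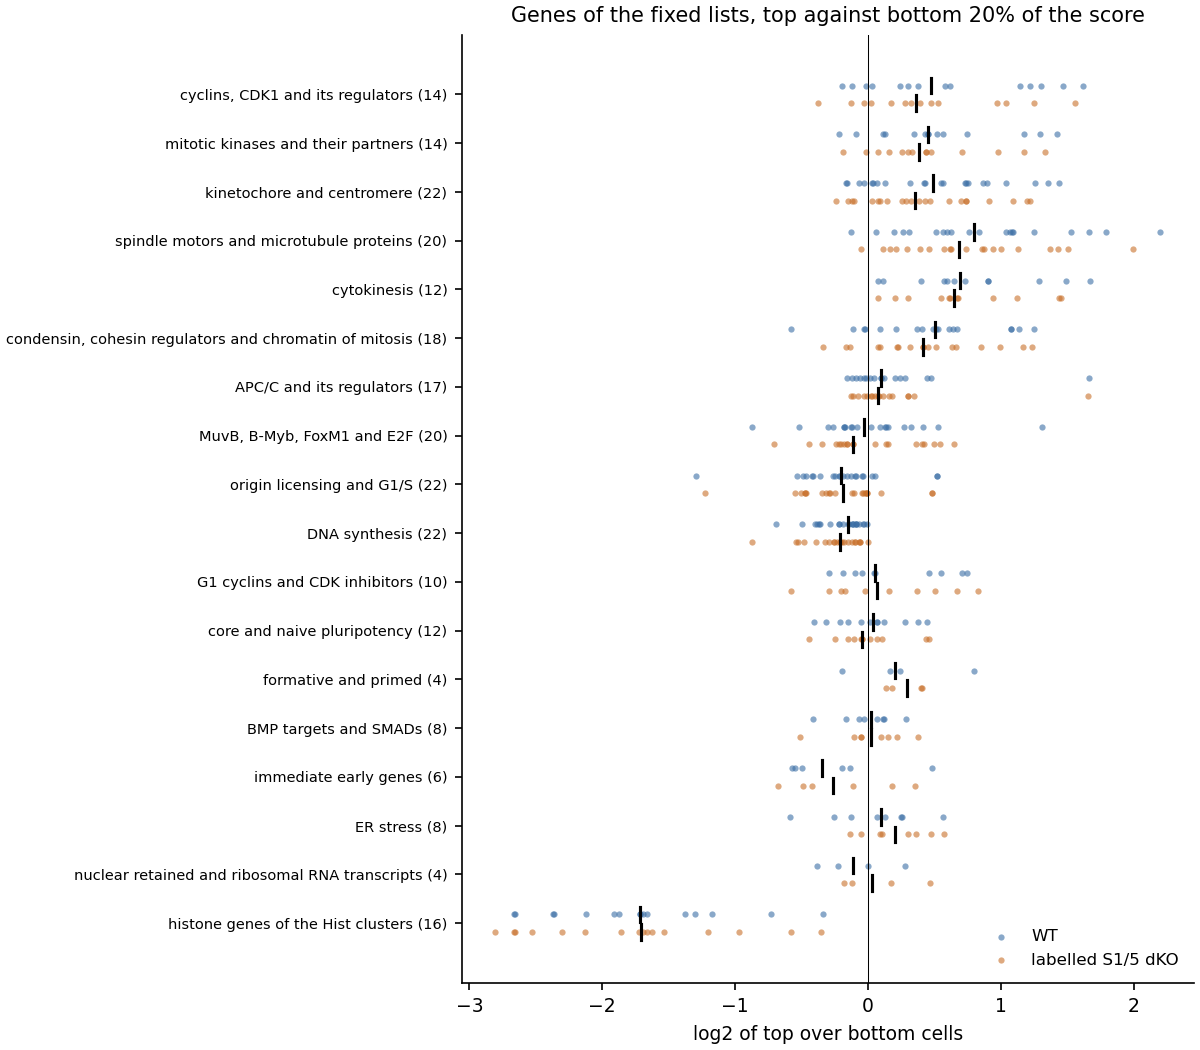
Log2 ratio of members over bottom cells (x axis) for the genes tested of each list (number in brackets), in WT (blue) and in the S1/5 dKO-labelled library (orange), with each list's median as a black bar. The medians of the 6 mitotic lists lie between 0.35 and 0.80, those of licensing and DNA synthesis between −0.21 and −0.15, and that of the histone genes at −1.71 in both.

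Histone genes made up all of the 10 lowest genes with at least 500 UMIs in each library. *Hist1h1b* (ENSMUSG00000058773, chr13:21779883-21780625), a linker histone gene, was at 139 CPM in WT members and at 877 CPM in bottom cells, and at 144 and 1009 CPM in the S1/5 dKO-labelled library, log2 ratios of −2.66 (−2.72 to −2.60) and −2.81 (−2.86 to −2.75). *Hist1h2ap* (ENSMUSG00000094777, chr13:21833026-21833507), a gene of histone H2A, was at 111 against 698 CPM and at 121 against 767 CPM, log2 ratios of −2.66 in each. Next came *Hist1h2ae* at −2.37 and −2.53, *Hist1h1a* at −2.36 and −2.66, and *Hist1h1e* at −2.12 and −2.30. *Hist1h1d*, *Hist1h1c*, *Hist1h4d*, *Hist1h4i* and *Hist1h2bc* followed, with log2 ratios from −1.88 (*Hist1h1d*) to −1.18 (*Hist1h2bc*) in WT and from −2.13 to −0.97, for the same genes, in the other. Linker, H2A, H2B and H4 genes all take part in this.

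Of 67 genes named in the histone clusters 16 were tested, of which 14 were lower and 0 higher in both libraries, with a median of −1.71 in each. Summed, they gave 538 CPM in WT members against 2561 CPM in bottom cells, and 532 against 2759 CPM in the other library. Per cell, members had a median of 3.48 histone UMIs per 10000 in WT and 3.09 in the other library, and bottom cells 25.2 and 27.1. At or above the median of the bottom cells lay 10 of the 439 WT members (2.28%, interval 1.10 to 4.15) and 13 of the 569 others (2.28%, 1.22 to 3.88). The ranges from the 5th to the 95th percentile met, from 1.16 to 18.1 in WT members and from 5.74 to 47.9 in WT bottom cells, and from 0.99 to 21.1 and from 6.60 to 47.9 in the other library. These genes have many close copies, so the split of counts among them is uncertain, and most of their mRNAs lack a poly(A) tail, so a 3′ assay primed on poly(A) counts a part of them.

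The promoter of *Hist1h1b* (chr13:21780626-21780755, minus strand, listed by RefSeq as H1f5) is shown for comparison. It holds CCAAT letters on both strands in these bases, and a CHR lies further out, 230 bases before the start.

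Hist1h1b: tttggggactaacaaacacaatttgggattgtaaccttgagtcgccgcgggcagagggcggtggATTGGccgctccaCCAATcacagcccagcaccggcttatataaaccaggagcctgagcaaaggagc

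Of the 14 lower histone genes 13 had a promoter in the table, 11 of them with CCAAT and 6 with a CHR within the 250 bases.

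How the members vary among themselves was read by dividing each library by score into 10 parts of equal cell number, of which the members are the 9th and the 10th. *Cdk1* was at 467 CPM in the 9th and at 509 CPM in the 10th part of WT, a log2 ratio of 0.12 (0.07 to 0.18), and at 449 and 509 CPM in the other library, 0.18 (0.13 to 0.23). *Top2a* went from 384 to 414 CPM in WT and from 406 to 454 CPM in the other library. Both genes were highest in the last part. *Pttg1*, for securin, which holds sister chromatids together until the APC/C destroys it, lay between 83.5 and 101 CPM over the first 8 parts of WT, and was at 116 CPM in the 9th and at 142 CPM in the 10th. In the other library it lay between 108 and 122 CPM over the first 8 parts and then at 129 and 172 CPM. *Ccnb2* was near flat in the same way, between 149 and 168 CPM over the first 8 parts of WT, and then at 177 and 215 CPM. *Pttg1* and *Ccnb2* thus varied little over the first 8 parts and were highest in the last.

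*Cdc20*, of the score itself, went from 431 to 532 CPM between the 9th and 10th part of WT and from 390 to 512 CPM in the other library, which the rule favours and which is a description. *Nusap1* went from 123 to 159 CPM in WT and from 130 to 174 CPM in the other library, log2 ratios of 0.37 and 0.42. *Hist1h1b* fell over the same step, from 160 to 114 CPM in WT, a log2 ratio of −0.48 (−0.59 to −0.38), and from 175 to 113 CPM in the other library, −0.63 (−0.73 to −0.54). The histone sum stood at 2463 CPM in the 1st part of WT, 2053 CPM in the 5th, 608 CPM in the 9th and 460 CPM in the 10th, so that it dropped mostly over the second part of the score range.

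**Figure D4:**
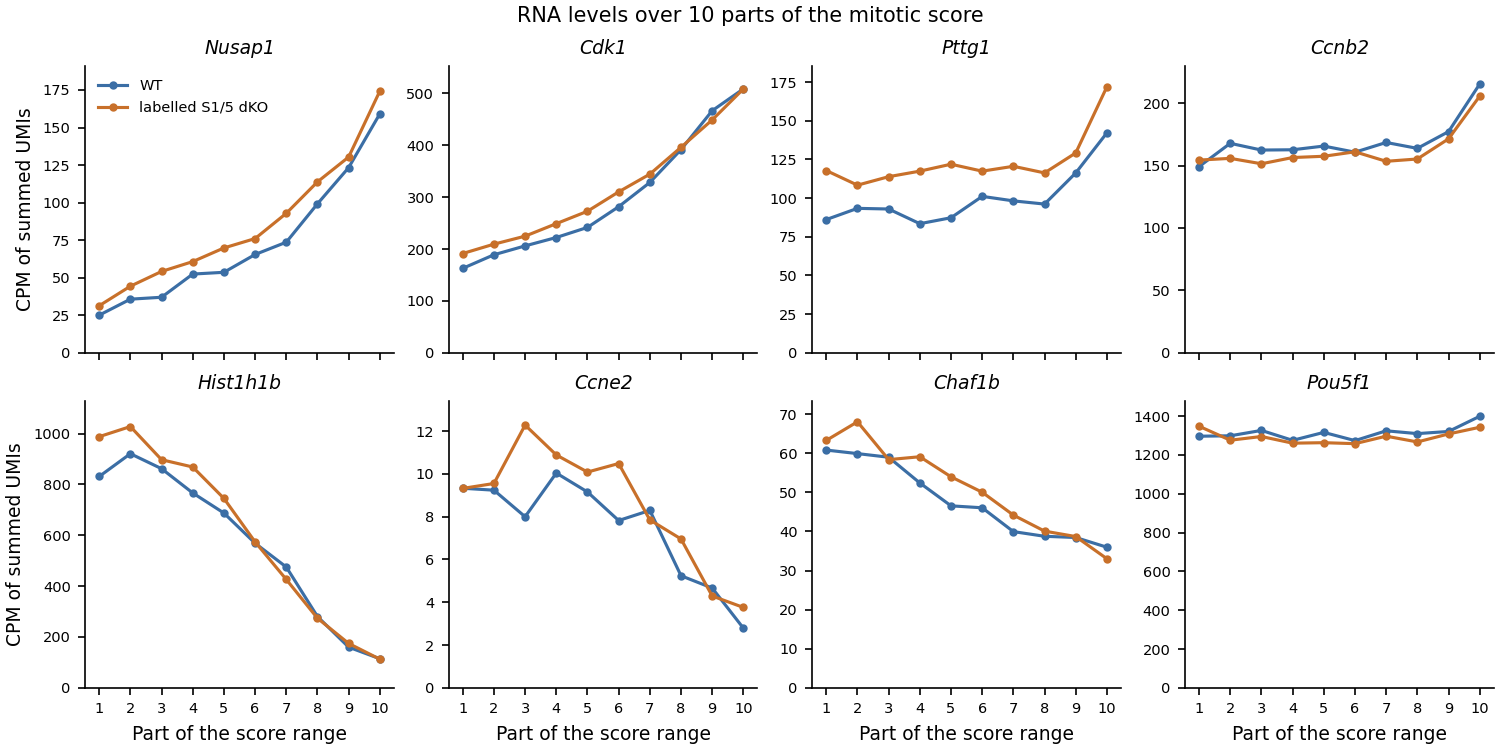
Level of 8 genes (y axis, CPM of summed UMIs) in 10 parts of the score range (x axis, the 9th and 10th being the members), in WT (blue) and in the S1/5 dKO-labelled library (orange). *Nusap1* and *Cdk1* climb through all parts, *Pttg1* and *Ccnb2* rise from the 9th on, *Hist1h1b*, *Ccne2* and *Chaf1b* decline, and *Pou5f1* stays between 1258 and 1399 CPM.

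Members expressed markers of embryonic stem cells. Of 12 core and naive pluripotency genes tested, of 14 listed, 0 were higher and 0 lower. Over all genes tested 1.82% were higher and 0.385% lower in both libraries, so nothing is read from these counts. The medians of the list were 0.04 in WT and −0.04 in the other library. *Pou5f1*, for OCT4, was at 1357 against 1297 CPM in WT and at 1325 against 1310 CPM in the S1/5 dKO-labelled library, and *Nanog* at 155 against 120 CPM and at 161 against 117 CPM. *Sox2* was at 228 against 263 CPM in WT and at 239 against 258 CPM in the other. The formative and primed list had 4 of 9 genes tested, 0 of them higher or lower in both, with medians of 0.20 and 0.29, and *Fgf5* had 0 UMIs in the members of both libraries. Of the G1 cyclins and CDK inhibitors, 10 tested of 11, 2 were higher, *Ccnd1*, for cyclin D1, at 212 against 130 CPM in WT and 225 against 142 CPM in the other, and *Cdkn2d*, for the inhibitor p19, at 30.4 against 18.1 CPM and 30.3 against 17.0 CPM. The median of that list was 0.05 in WT and 0.07 in the other library.

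Markers of other cells were rare in members. The 6 endoderm markers had 58 UMIs in all WT members and 55 in the others, against 29 and 55 in bottom cells, with *Gata6* the most abundant, and *Foxa2* had 0 UMIs in WT members and 1 in the others. Of the 6 fibroblast markers *Vim*, which ESCs express as well, had 7237 of 7271 UMIs in WT members and 6883 of 6921 in the others, and *Col3a1* had 0 in both. Of the 10 listed markers of 2C-like cells, a rare state that resembles the embryo after its first division, 9 are in the files, and they had 4 UMIs in WT members against 136 in bottom cells, but 105 against 47 in the S1/5 dKO-labelled library, with *Zscan4d* the most abundant. Over the 10 parts of the score range, the summed 2C-like markers were at 17.3 CPM in the 1st and 0.12 CPM in the 2nd part of WT. In the other library they were at 14.5 CPM in the 8th part, 7.89 CPM in the 9th and 0.16 CPM in the 10th. None of these 2C-like markers reached the minimum of 200 UMIs in both libraries, and how many cells gave the UMIs was not examined.

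Between the libraries the score genes, which chose the members, are given as a description. Their log2 ratios of the S1/5 dKO-labelled library over WT lay between −0.09 (*Cdc20*) and 0.07 (*Aurka*) in members and between 0.02 (*Cdc20*) and 0.35 (*Ube2c*) in bottom cells. For *Ube2c* the ratio was 0.03 (0.01 to 0.06) in members and 0.35 (0.29 to 0.41) in bottom cells. Among the genes described above as highest in members, *Nusap1* was at 0.12 and *Fam83d* at −0.13. Loss of the SMAD proteins is not shown by mRNA. With 1 library of each, a difference between the libraries cannot be told apart from one between cultures.

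In the members of the 2 libraries 8609 genes had at least 200 UMIs. By at least 1.5-fold, 67 of them (0.778%) were higher and 64 (0.743%) lower in members labelled S1/5 dKO. In bottom cells 72 (0.923%) of 7798 genes were higher and 78 (1.00%) lower. Of the members' genes that were also tested in bottom cells, 32 of 51 higher and 24 of 52 lower ones passed the same limit there. The differences between the libraries were thus in part shared by cells at both ends of the score. On chromosome 8, which carries *Smad1*, lay 21 of the 64 lower genes and 0 of the 67 higher ones, against 510 (5.92%) of the 8609 genes tested.

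Among genes with at least 500 UMIs in members, the lowest ratios were those of *Id2* and *Id1*. *Id2* (ENSMUSG00000020644, chr12:25093799-25097140), an inhibitor of bHLH factors that SMAD1/5 induce, was at 56.1 CPM in WT members and at 17.0 CPM in the other members, a log2 ratio of −1.72 (−1.88 to −1.57). *Id1* (ENSMUSG00000042745, chr2:152736251-152737410) was at 372 and 175 CPM, a log2 ratio of −1.09 (−1.14 to −1.04), and *Id3* at 98.1 and 58.4 CPM, −0.75 (−0.84 to −0.65). In bottom cells the ratios were −1.99, −1.02 and −0.96, so the *Id* genes were lower at both ends of the score. Between members and bottom cells of 1 library they moved little, and of 8 genes tested of the 11 BMP targets and SMADs 0 were higher or lower in both, with a median of 0.02 in each library.

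The remaining lower genes by rank were *Napsa*, for an aspartic protease, at 14.4 CPM in WT members and 6.97 CPM in the others, *Wfdc2*, for a secreted protein, at 43.2 and 22.5 CPM, and *Serpinh1*, for a collagen chaperone, at 13.8 and 7.32 CPM. *Wfdc2* had a log2 ratio of −0.94 (−1.09 to −0.79) in members and of −0.28 (−0.43 to −0.13) in bottom cells, and was the gene of these 5 whose ratio differed most between the ends of the score. The highest gene was *Efhc2* (ENSMUSG00000025038, chrX:17132049-17319368), which encodes an EF-hand protein, at 1.91 and 20.7 CPM, a log2 ratio of 3.43 (2.99 to 3.91). *Mest* and *Nnat*, a pair of imprinted genes, were at 12.9 and 98.4 CPM and at 4.09 and 24.9 CPM, log2 ratios of 2.93 and 2.61, against 3.18 and 3.13 in bottom cells. *Aass*, for an enzyme of lysine breakdown, was at 6.88 CPM in WT members and 29.3 CPM in the others, 2.09 (1.84 to 2.35), with a log2 ratio of 1.22 (0.91 to 1.54) in bottom cells. *Platr3*, a noncoding RNA of pluripotent cells, was at 7.70 and 20.2 CPM.

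**Figure D5:**
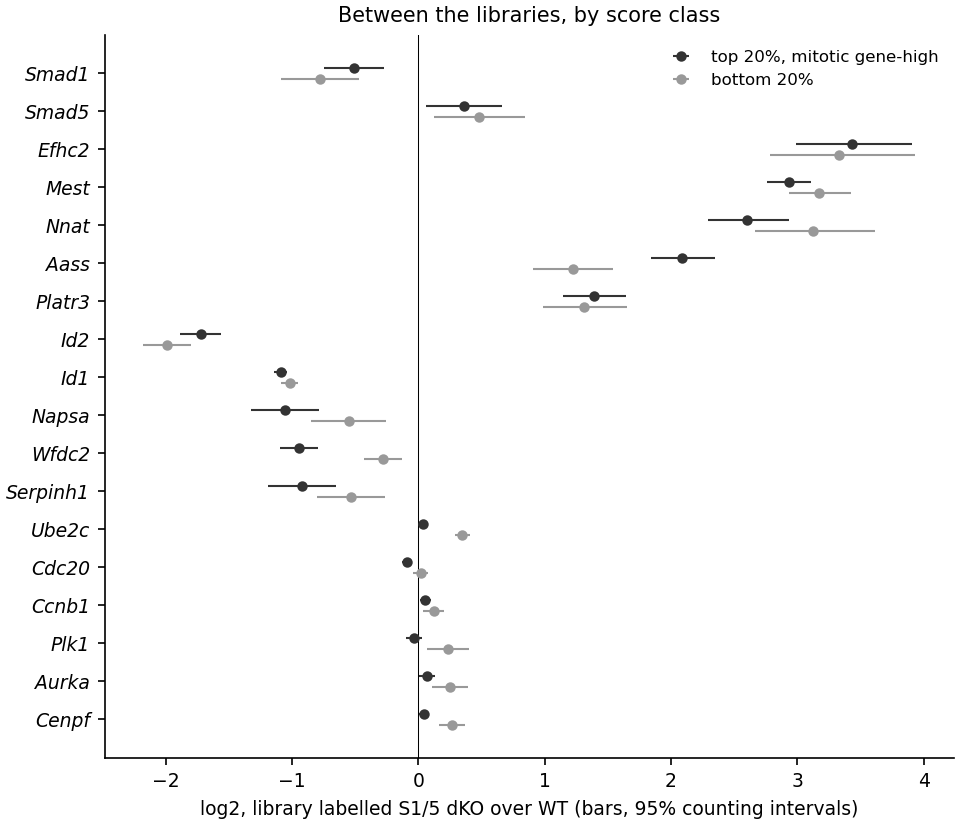
Log2 ratio of the S1/5 dKO-labelled library over WT (x axis) with 95% counting intervals, in members (black) and in bottom cells (grey), for *Smad1*, *Smad5*, the genes of highest and lowest ratio in members and the score genes. The *Id* and imprinted genes stand apart in both classes, while the score genes lie near 0 in members and above 0 in bottom cells, where the interval of *Cdc20* alone includes 0.

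For some genes the step from bottom cells to members differed between the libraries. *S100a6*, a calcium-binding protein gene, was lower in WT members, at 65.8 against 96.3 CPM. It was slightly higher in members of the other library, at 110 against 97.1 CPM. The difference between the log2 ratios was 0.73 (0.60 to 0.86). Over the 10 parts of the score range in WT, *S100a6* was at 121 CPM in the 1st and 72.3 CPM in the 2nd. In the 9th and 10th parts of WT it was at 57.8 and 74.9 CPM. *Fgfbp1*, for a carrier of FGFs, was at 27.6 against 29.1 CPM in WT and at 35.9 against 22.8 CPM in the other, and *Ctnnal1*, for a relative of alpha-catenin, at 19.6 against 21.5 CPM and at 29.9 against 20.2 CPM. In the opposite direction *Trh*, for the precursor of thyrotropin-releasing hormone, was at 130 against 112 CPM in WT and at 112 against 156 CPM in the other library. *Cdc25c*, for a phosphatase that activates CDK1, was at 18.8 against 8.08 CPM in WT and at 15.5 against 10.7 CPM in the other, log2 ratios of 1.22 (0.93 to 1.52) and 0.53 (0.28 to 0.78). *Wfdc2*, described above, was the last of these 6 genes. These are the extremes among the genes with at least 500 UMIs, and whether they differ between cultures was not tested.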

How the data were processed

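The deposited matrices hold raw UMI counts of every barcode, which the authors made with Cell Ranger 3.0.2 and the mm10 reference. Cells are barcodes with at least 1000 detected genes, at most 5% mitochondrial UMIs and at least 10000 UMIs. Counts were summed over the cells of a class and divided by its total UMIs. Ratios have exact conditional binomial intervals, levels exact Poisson intervals and shares exact Clopper-Pearson intervals, and the interval of a difference of log2 ratios is a normal approximation. A gene was tested with at least 200 UMIs over the 2 classes compared, in each library for members against bottom cells, and called at 1.5-fold. Named singly are the score genes, *Smad1*, *Smad5*, the listed genes, the 15 top and 10 lowest ratios of members over bottom cells, the 5 highest and 5 lowest ratios between libraries in members, and the 3 largest differences of each sign, with at least 500 UMIs. Not every gene that meets this rule is reported. The members and lists were chosen with earlier results of these data known. Promoters are those of RefSeq on GRCm38.p6, matched by Entrez gene and symbol. The procedure was tested on simulated data. Python 3.11.15, numpy 2.4.6, scipy 1.17.1, pandas 2.3.3 and matplotlib 3.10.9 were used.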

Additional observations from a re-analysis of the deposited data

Results flagged for a closer look

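Among the genes tested that the rule names or the lists hold there were 4, and among those called in opposite directions 2 more, chosen after their values were seen, for which the log2 ratio of members over bottom cells had opposite signs in the 2 libraries, each with an interval that leaves out 0, and with 1 library per condition the difference between the conditions was not tested. For *S100a6* it was −0.55 in WT and 0.18 in the S1/5 dKO-labelled library, a difference of 0.73. Among WT bottom cells *S100a6* was at 121 CPM in the 1st of the 10 parts of the score range and at 72.3 CPM in the 2nd. For *Trh* the log2 ratio was 0.22 in WT and −0.48 in the other library, a difference of −0.70. For *E2f4*, an E2F of the repressing kind, it was 0.14 in WT and −0.11 in the other library, a difference of −0.25. For *Cdc26*, an APC/C subunit, it was 0.10 in WT and −0.07 in the other library, a difference of −0.17. *Tagln* was at 19.8 CPM in WT members against 36.3 CPM in bottom cells and at 12.5 against 5.27 CPM in the other library, a difference of 2.12. *Gm5039* had 3 UMIs in WT members and 228 in bottom cells, a log2 ratio of −6.79 (−9.07 to −5.22), and 251 and 55 in the other library, 1.78 (1.35 to 2.22), a difference of 8.56. The summed 2C-like markers went the same ways as *Gm5039*, with 4 UMIs in WT members against 136 in bottom cells. In the other library they had 105 against 47 UMIs. How many cells gave these UMIs, and whether they were the same cells, was not tested. The *E2f4* and *Cdc26* ratios are under the 1.5-fold limit in each library.

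Barcodes with at least 1000 genes that the filters left out also held UMIs of the score genes. In those with under 10000 UMIs the summed score was 15.2 per 10000 UMIs in WT (43 barcodes, interval 13.6 to 17.0) and 16.5 in the other library (67 barcodes, 15.2 to 17.9). In those with over 5% mitochondrial UMIs it was 10.3 in WT (26 barcodes, 8.94 to 11.8) and 13.8 in the other library (29 barcodes, 12.3 to 15.4). These scores lie between those of the bottom cells and of the members.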

How the results depend on the processing

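Under 20 alternatives, 101 of 120 main values stayed close to those reported, and both ratios of UMIs stayed above 1. Between the libraries 51.1% of the called genes were higher as reported, and under the alternatives from 44.3% (thinned cells) to 77.4% (2-fold), so the balance of directions there turned with the setting. The counts reported are 147 genes higher and 31 lower in members, 67 higher and 64 lower between the libraries, and ratios of UMIs of 1.47 and 1.38. With the top and bottom 30% of cells, 106 genes were higher in members labelled S1/5 dKO. Against all cells outside the top 20%, 64 genes were higher in members, and the ratios of UMIs were 1.36 in WT and 1.29 in the other library, as the comparison cells then reach up to the members' limit. In cells thinned to 10000 UMIs 4298 genes were tested, with 54 higher and 13 lower in members, and 31 higher and 39 lower between the libraries. With at least 100 UMIs per gene 9557 genes were tested, with 61 lower in members, and 147 higher and 136 lower between the libraries. With at least 500 UMIs 5778 genes were tested, with 95 higher and 14 lower in members, and 35 higher and 29 lower between the libraries. At 2-fold, 49 genes were higher and 14 lower in members, and 24 higher and 7 lower between the libraries. Where the number of genes tested or the fold does not give the change, the cause was not tested. For named genes, 9943 of 11440 ratios of members over bottom cells stayed within their intervals.

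No paired analysis was possible because each condition has 1 library. The intervals cover counting error and not the spread between cells, and differences between the libraries include those between cultures. Genes under 200 UMIs were not tested. Members and bottom cells come from the same library and share its free RNA.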

Other observations

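A few lists outside the cell cycle were also read in members against bottom cells. Of 10 immediate early genes, which respond to stimulation and to handling of cells, 6 were tested and 0 were higher or lower in both libraries, with medians of −0.35 in WT and −0.26 in the S1/5 dKO-labelled library. *Junb* was at 48.7 against 68.8 CPM in WT and at 54.4 against 76.4 CPM in the other library. Of 8 ER stress genes 0 were higher or lower in both, with medians of 0.10 and 0.21, and *Hspa5*, for the chaperone BiP, was at 250 against 209 CPM and at 232 against 180 CPM.

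Of the 5 nuclear retained and ribosomal RNA transcripts 4 were tested and 0 were higher or lower in both, with medians of −0.11 and 0.03. *Malat1*, a nuclear noncoding RNA, had log2 ratios of 0.28 in WT and 0.47 in the other library. The 13 mitochondrial genes had medians of −0.16 and −0.13, all 13 below 0 in both libraries, and 0 of them passed the limit. The 82 ribosomal protein genes tested of 83 had log2 ratios between −0.15 and 0.11 in WT and between −0.30 and 0.10 in the other library.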
